A study of Mus musculus with 2 samples.

Results

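The miR-148/miR-152 family of the mouse consists of 3 microRNA (miRNA) genes, Mir152, Mir148a and Mir148b, which make mature miRNAs with the same seed from separate chromosomes. The genes were taken by name from the 2202 miRNA genes counted, and all 3 were found. They were measured in 2 small RNA libraries, labelled biological replicates 2 and 1, made from total RNA of whole heart tissue of male B6CASTF1/J mice, first-generation hybrids of the C57BL/6J and CAST/EiJ strains, between 18 and 20 months of age. The labels place both libraries in 1 group with no treatment and name the same donor record for both, so every p-value below concerns the difference between these libraries and measures no spread between animals, and the spread may be technical. Replicate 2 held 5284446 sense reads in miRNA genes and replicate 1 held 3037063.

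A miRNA is cut from a hairpin precursor and guides silencing complexes to messenger RNAs, mainly by pairing of its seed, bases 2 to 8 from the 5′ end, so miRNAs that share a seed share many targets. The mature strand of this family that is usually the more abundant comes from the 3′ arm of the hairpin. In human cells the family is known to repress the message of the DNA methyltransferase DNMT1, and in liver miR-148a is known to lower the LDL receptor.

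The 3p strands are shown because they define the family, with the seed in capitals and RefSeq sequences of build GRCm38.p6 written 5′ to 3′. Mir152 lies on chromosome 11, Mir148a on chromosome 6 and Mir148b on chromosome 15.
miR-152-3p: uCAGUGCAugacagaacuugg
miR-148a-3p: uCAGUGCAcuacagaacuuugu
miR-148b-3p: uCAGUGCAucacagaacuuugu
Of 1738 mature mouse miRNAs in the RefSeq table, these 3 (0.173%) had the seed CAGUGCA, whose perfect partner in a message is UGCACUG. Counted from 1 at the 5′ end and written with the base of miR-148a-3p first, miR-148b-3p differed by C9U and U10C, and miR-152-3p by C9U, U10G and U20G over the 21 bases they have in common. Between miR-148b-3p and miR-152-3p the differences were C10G and U20G. The substitutions at positions 9 and 10 follow directly on the seed, and none lies inside it.

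The 5p strands of Mir148a and Mir148b also shared a seed, AAGUUCU, while that of Mir152, AGGUUCU, was found in no other mature miRNA of the table. The deposited counts are per gene and do not separate the arms, so all levels below are sums over both strands of a hairpin. The hairpins are shown because they are the counted features, with the mature strands in capitals.
Mir152 hairpin: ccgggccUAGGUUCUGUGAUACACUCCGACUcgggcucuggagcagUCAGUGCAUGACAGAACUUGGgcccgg
Mir148a hairpin: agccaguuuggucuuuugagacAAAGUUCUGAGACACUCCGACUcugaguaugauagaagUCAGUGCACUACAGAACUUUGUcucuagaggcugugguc
Mir148b hairpin: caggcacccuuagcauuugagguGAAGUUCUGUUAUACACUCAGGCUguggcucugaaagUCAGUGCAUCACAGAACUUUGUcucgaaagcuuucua
The Mir152 hairpin is 73 bases long with a GC content of 61.6%, against 99 bases and 45.5% for Mir148a and 97 bases and 45.4% for Mir148b. The longest exact stretch that the Mir148a and Mir148b hairpins shared with any of the other 2201 annotated hairpins was 15 bases, with each other. For Mir152 it was 12 bases, with Mir148a. No other annotated hairpin held a stretch of 18 bases of any of the 3, so error-free reads of nearly whole mature length have 1 place among annotated hairpins. Copies elsewhere in the genome, and reads with mismatches that could move between paralogs, were not checked here.

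The positions of the genes were related as well (GRCm38, GENCODE M21). Mir152 (ENSMUSG00000065515.1, chr11:96850393-96850465, plus strand) lay in the first intron of Copz2, and Mir148b (ENSMUSG00000065560.1, chr15:103285125-103285221, plus strand) in the first intron of Copz1. Both hosts are transcribed from the same strand as their hairpin and encode paralogous zeta subunits of the coatomer, the coat of vesicles that travel from the Golgi apparatus to the endoplasmic reticulum. The intron of Copz2 is 676 bases long, with the hairpin 396 bases after the first exon, while that of Copz1 is 16159 bases long, with the hairpin 12183 bases after the first exon. Neither hairpin overlapped an exon of any of the 5 Copz2 or 4 Copz1 transcripts. Mir148a (ENSMUSG00000065505.1, chr6:51269812-51269910, minus strand) lay in no annotated gene, and the nearest gene was the long noncoding RNA gene Gm32479 at 13.6 kb.

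**Figure D1:**
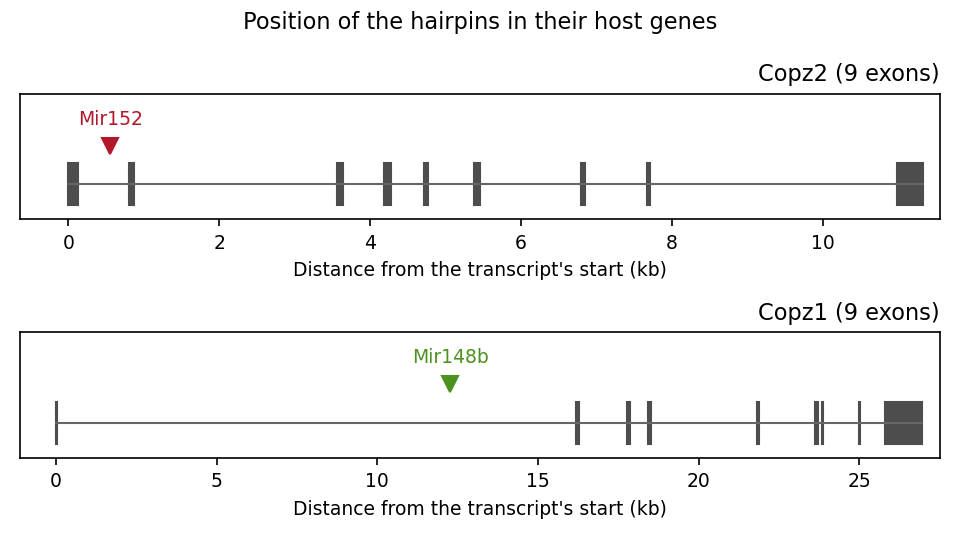
Positions of Mir152 and Mir148b in their host genes, with the distance from the transcript's start in kb on the horizontal axis of each panel, exons as boxes, introns as lines and the hairpin as a triangle. Both hairpins lie between the first and second of 9 exons, in an intron of 676 bases in Copz2 and of 16159 bases in Copz1.

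Members of the same gene families flanked all 3 loci. The flanking families were picked after the annotation had been read. Mir152 had the chromatin protein gene Cbx1 at 41.8 kb and the transcription factor gene Nfe2l1 at 20.4 kb, Mir148b had Cbx5 at 45.3 kb and Nfe2 at 26.7 kb, and Mir148a had Cbx3 at 200.5 kb and Nfe2l3 at 163 kb. No coatomer zeta gene was annotated on chromosome 6. Each of the 3 miRNAs stood alone, with the nearest other annotated miRNA gene at 213 kb (Mir8103, beside Mir152), 352 kb (Gm22914, beside Mir148a) and 65.2 kb (Mir6963, beside Mir148b).

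Mir152 was the most abundant of the 3 by mean level, followed by Mir148a and Mir148b. Levels are reads per 1000000 sense reads in miRNA genes (CPM), with no division by length, because a read covers 1 whole mature miRNA. Mir152 had 1333 reads (252 CPM, 95% Wilson interval 239 to 266) in replicate 2 and 764 reads (252 CPM, 234 to 270.0) in replicate 1. Its mean was 252 ± 0.489 CPM (SD, n = 2), and the libraries were this close only when scaled to miRNA reads: per 1000000 of all reads, unmapped reads and reads mapped to several places included, it had 68.1 in replicate 2 and 80.7 in replicate 1. Mir148a had 479 reads (90.6 CPM, 82.9 to 99.1) in replicate 2 and 697 reads (229 CPM, 213 to 247) in replicate 1. Its mean was 160.1 ± 98.2 CPM (SD, n = 2), and it had fewer reads in the library that was sequenced more deeply. Mir148b had 335 reads (63.4 CPM, 57.0 to 70.6) in replicate 2 and 288 reads (94.8 CPM, 84.5 to 106) in replicate 1, a mean of 79.1 ± 22.2 CPM (SD, n = 2). No molecular identifiers are recorded, so these intervals cover counting error only. On the opposite strand 0 reads were counted at any of the 3 in either library, which allows up to 0.568 CPM in replicate 2 and 0.988 CPM in replicate 1.

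**Figure D2:**
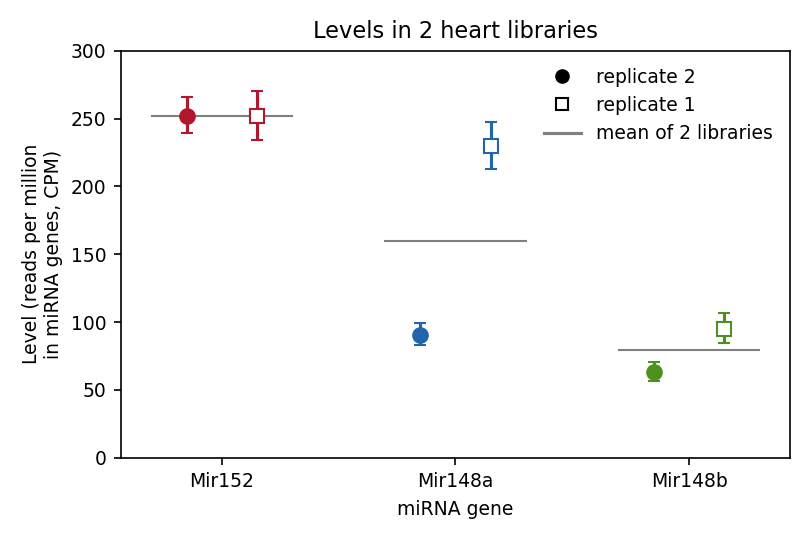
Level of Mir152, Mir148a and Mir148b in CPM on a linear axis, with filled circles for replicate 2, open squares for replicate 1, bars for 95% Wilson intervals of counting error and a grey line at the mean. The libraries meet at 252 CPM for Mir152 and stand apart at 90.6 and 229 CPM for Mir148a.

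The levels of Mir152 and Mir148a over the libraries did not overlap, since the highest of Mir148a (229 CPM) was below the lowest of Mir152 (252 CPM). In replicate 1, however, their counting intervals overlapped, and per 1000000 of all reads Mir148a had 73.6 in replicate 1, above the 68.1 of Mir152 in replicate 2, so that the levels overlapped. Those of Mir148a and Mir148b did overlap, because Mir148a in replicate 2 (90.6 CPM) was below Mir148b in replicate 1 (94.8 CPM). Together the 3 genes took 2147 reads, or 0.0406% (95% Wilson interval 0.0389 to 0.0424), in replicate 2 and 1749 reads, or 0.0576% (0.0550 to 0.0604), in replicate 1. The family share was 0.0491% ± 0.0120 (SD, n = 2) of the sense reads in miRNA genes.

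A gene was called detected where each library held 10 reads or more of it. Among the 321 detected miRNA genes, all 3 members were in the middle of the order. Mir152 ranked 107th by mean CPM, Mir148a 122nd and Mir148b 146th. In replicate 2 the ranks were 108, 148 and 164, and in replicate 1 they were 101, 107 and 139, so Mir148a changed place the most of the 3. The median detected gene had 67.4 CPM. The genes on either side of Mir152 were Mirlet7f-1 (252 ± 10.6 CPM, SD, n = 2), of the let-7 family, and Mir339 (241 ± 22.4 CPM), and those next to Mir148b were Mir18 (80.8 ± 7.74 CPM) and Mir598 (77.3 ± 14.8 CPM). Above and below Mir148a stood Mir101a (160.4 ± 112 CPM) and Mir193b (159 ± 6.65 CPM). The range over the 2 libraries of each of these 6 neighbours overlapped that of the member beside it. At 2 steps from Mir152, Mir92-2 (257 ± 58.7 CPM) above it overlapped and Mir24-2 (224 ± 34.2 CPM) below it did not. The other genes at 2 steps, Mir3102 and Mir1843a around Mir148a and Mir208b and Mir26a-1 around Mir148b, all overlapped. Since reads mapped to several places are counted for no gene, numbered copies such as Mirlet7f-1, Mir92-2, Mir24-2 and Mir26a-1 may be undercounted. Their places are those of counted genes and not of mature miRNAs. The ranges span 2 levels and leave out counting error. That of Mir152 ran only from 251.56 to 252.25 CPM, while its counting interval in replicate 1 was 234 to 270 CPM. The level of Mir24-2 in replicate 1 (248.6 CPM) lay inside that interval, so few overlaps do not set Mir152 apart. In all, 11 detected genes had a range that overlapped that of Mir152, 52 that of Mir148a and 38 that of Mir148b. Those around Mir152 ranked from 54th to 111th, and those around each of the others from 54th to 171st, so no member has a firm place in the order. With all reads as the denominator the numbers of overlapping genes were 20, 58 and 43 for Mir152, Mir148a and Mir148b.

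**Figure D3:**
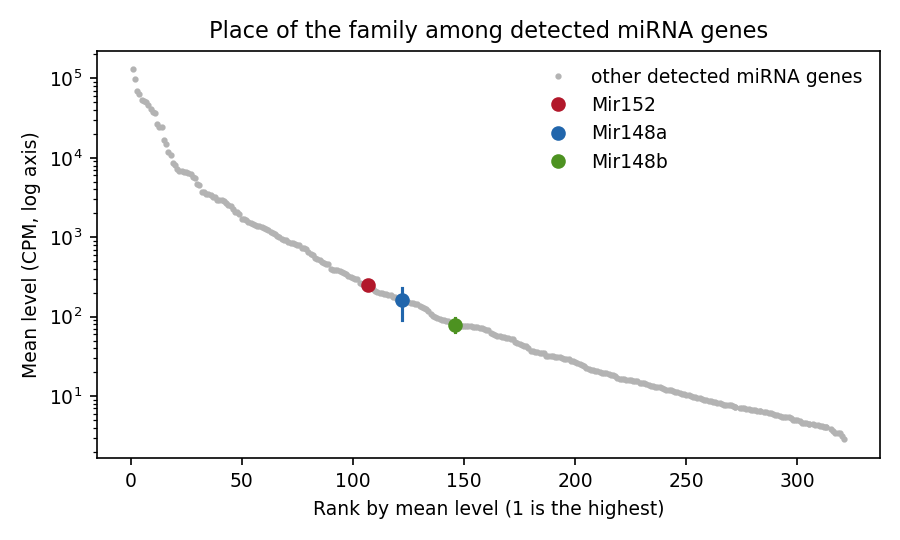
Mean CPM (log axis) of the 321 detected miRNA genes against their rank, with the 3 members in colour and a vertical line over the range of their 2 libraries. The members lie at ranks 107, 122 and 146, and the line is longest for Mir148a.

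A place inside a host gene was common among detected miRNAs. Of the 321, 158 (49.2%) lay inside a protein-coding gene on the same strand, with a median of 70.7 CPM, against 55.4 CPM for the other 163. Mir152 was the 50th most abundant and Mir148b the 71st of those 158, and Mir148a the 64th of the other 163. No other annotated miRNA gene lay within 10 kb for 162 of the detected genes, the 3 members included, and their median was 43.3 CPM, below each member's mean. RNA of Copz1 and Copz2 is not measured by these libraries, so no level of a host can be set beside that of its miRNA.

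The make-up of the family differed between the libraries. Mir152 made up 62.1% (95% Wilson interval 60.0 to 64.1) of the family's reads in replicate 2 and 43.7% (41.4 to 46.0) in replicate 1. The share of Mir148a was 22.3% (20.6 to 24.1) in replicate 2 and 39.9% (37.6 to 42.2) in replicate 1, while that of Mir148b was 15.6% (14.1 to 17.2) in replicate 2 and 16.5% (14.8 to 18.3) in replicate 1. The intervals of the 2 libraries did not overlap for Mir152, which was higher in replicate 2, or for Mir148a, which was higher in replicate 1. Those of the Mir148b share overlapped.

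**Figure D4:**
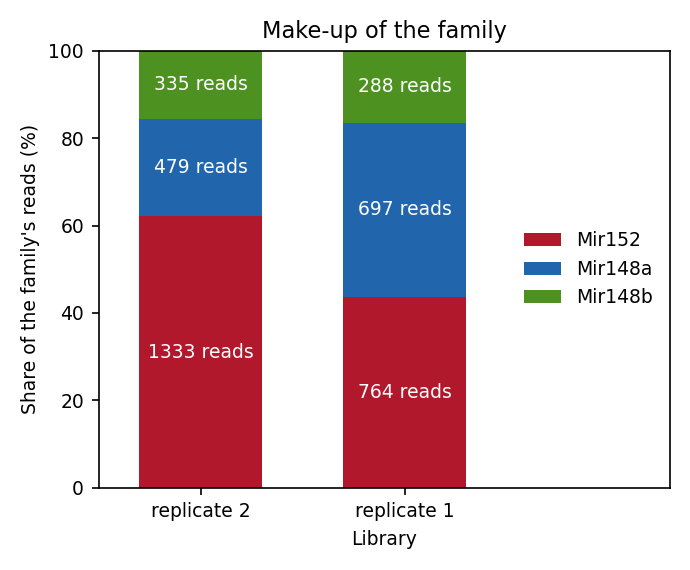
Share in percent of the family's reads that came from Mir152, Mir148a and Mir148b in replicate 2 and in replicate 1, as stacked bars that sum to 100% with the number of reads printed in each. Mir152 holds 62.1% in replicate 2 and 43.7% in replicate 1.

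Ratios between paralogs inside a library do not depend on how the libraries are scaled. Mir152 exceeded Mir148a 2.78-fold in replicate 2 (exact 95% binomial interval 2.51 to 3.10) and 1.10-fold in replicate 1, where the interval of 0.988 to 1.22 includes equal levels. It exceeded Mir148b 3.98-fold in replicate 2 (3.53 to 4.50) and 2.65-fold in replicate 1 (2.31 to 3.05). Mir148a exceeded Mir148b 1.43-fold in replicate 2 (1.24 to 1.65) and 2.42-fold in replicate 1 (2.11 to 2.79). The order of the 3 genes was thus the same in both libraries, apart from the near tie of Mir152 and Mir148a in replicate 1. The mean log2 ratio was 1.70 ± 0.41 for Mir152 over Mir148b, 0.90 ± 0.54 for Mir148a over Mir148b and 0.80 ± 0.95 for Mir152 over Mir148a (SD, n = 2 for each), and the last of these was smaller than its spread. An exact sign-flip permutation test over 2 libraries cannot go below p = 0.5, so none was made.

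The size of each ratio differed between the libraries by more than counting error. Set as replicate 2 over replicate 1, the ratio of Mir152 to Mir148a changed 2.54-fold (exact 95% interval 2.19 to 2.95, adjusted p = 6.26e-36, two-sided Fisher's exact test with Benjamini-Hochberg adjustment over 3 pairs). That of Mir152 to Mir148b changed 1.50-fold (1.25 to 1.80, adjusted p = 1.29e-05 in the same exact test), and that of Mir148a to Mir148b 0.591-fold (0.483 to 0.722, adjusted p = 2.46e-07 in the same exact test). These tests compare 2 libraries and carry no information on the spread between hearts.

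Gene by gene, Mir148a and Mir148b were higher in replicate 1, while the call of Mir152 depended on the scaling. Genes with 10 reads or more over the libraries together were put to a two-sided exact binomial test, given the library totals, with Benjamini-Hochberg adjustment over 424 genes and a threshold of 0.05. Mir148a had a log2 ratio of replicate 2 over replicate 1 of -1.34 (95% interval -1.51 to -1.17, adjusted p = 2.11e-55 in this exact test), which is 2.53 times as much in replicate 1 as in replicate 2. Mir148b had a log2 ratio of -0.58 (-0.81 to -0.35, adjusted p = 2.24e-06 in this exact test). Mir152 had a log2 ratio of 0.00 (-0.13 to 0.13, adjusted p = 1 in this exact test) and did not pass, but with all reads as the denominator it had -0.24 (adjusted p = 0.000552 in the same exact test) and passed as higher in replicate 1. The summed reads of the family had a log2 ratio of -0.50 (-0.60 to -0.41).

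Differences beyond counting error were common in this pair of libraries, and the 2 of 3 members called are read against that background. Of the 424 genes tested, 52.8% were called, 30.9% as higher in replicate 2 and 21.9% as higher in replicate 1. Among detected genes within 2-fold of a member's mean level the share called was larger. It was 78.3% of 46 genes for Mir152, 67.4% of 46 for Mir148a and 69.1% of 55 for Mir148b. Scaled to all reads of each library, which moved every log2 ratio by -0.25, 35.8% of the calls were higher in replicate 2, against 58.5% under the scaling used here. The exact test of edgeR was also run with the common dispersion of these libraries, a coefficient of variation of 40.5%. It called 2.83% of the 424 genes and 0 of the 3 members (adjusted p = 0.887 for Mir148a, 1 for Mir148b and 1 for Mir152). That dispersion was estimated from the same 2 libraries taken as 1 group, so it already holds the difference under test. The few calls therefore do not show that the libraries agree. Without adjustment the p-values of that exact test were 0.117, 0.493 and 0.995, and none was under 0.05.

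The size of the differences placed the members far apart. The absolute log2 ratio of Mir152 was the smallest of the 321 detected genes, whose median was 0.38, but this place depends on the scaling: it was the 12th smallest with TMM, the 9th with DESeq2 size factors and the 95th when all reads were the denominator. That of Mir148a was the 38th largest, and its signed ratio the 19th lowest. Among the 46 detected genes within 2-fold of its mean level, only Mir222 (log2 ratio 2.64) and Mir101a (-1.56) had a larger absolute log2 ratio than Mir148a, and the median of these 46 was 0.29. Mir148b was less unusual for its level, since 22 of 55 such genes had a larger absolute log2 ratio and their median was 0.39.

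**Figure D5:**
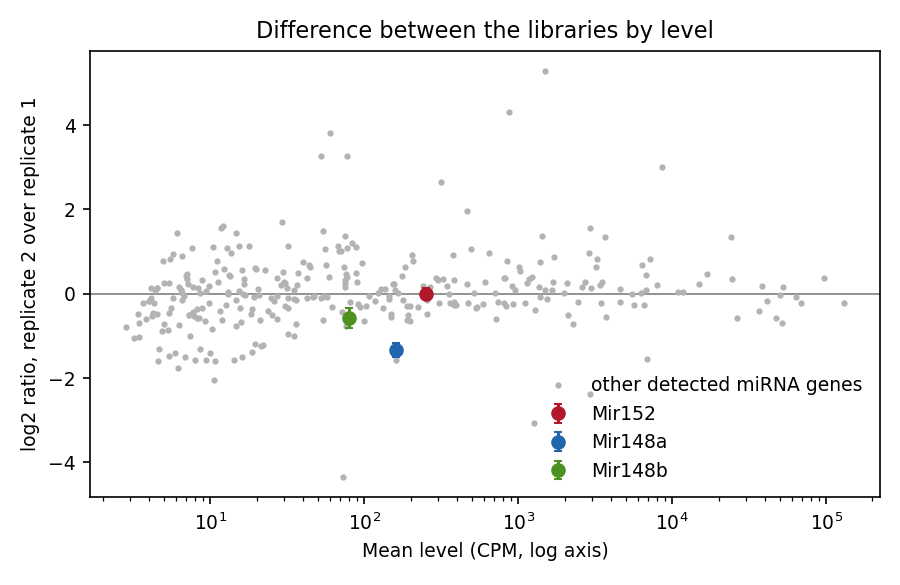
The log2 ratio of replicate 2 over replicate 1 against mean CPM (log axis) for the 321 detected miRNA genes, with 95% intervals of counting error on the 3 members. Mir152 lies on the line at 0, Mir148b at -0.58 and Mir148a at -1.34, beside Mir101a.

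Marker miRNAs of several cell types also differed between the libraries. All 28 markers of the 6 lists were matched, and 0 of them were without reads in either library. The median log2 ratio of replicate 2 over replicate 1 was 0.016 over all 321 detected genes. The heart muscle list summed to 14802 CPM in replicate 2 and 10835 CPM in replicate 1, with 6 of 7 members detected and a median log2 ratio of 0.40. Most of that difference was Mir208a (9154 CPM in replicate 2 and 5184 CPM in replicate 1). Mir499, also abundant by these counts, had a log2 ratio of -0.019 (adjusted p = 0.280 in the exact binomial test). Mir208b, at a lower level, had 1.21 and passed as higher in replicate 2 (adjusted p = 1.40e-22 in the same exact test). Mir1a-1 and Mir1a-2 had -0.87 and -0.052, which did not pass. Mir133a-1 (1.16) and Mir133a-2 (0.89) did not pass either. Because reads mapped to several places are counted for no gene, levels of numbered copies such as Mir1a-1, Mir1a-2, Mir133a-1 and Mir133a-2 may be understated. Their ratios rest on the reads that remained. The endothelial list (3 of 3 detected, median 1.57) summed to 114721 CPM in replicate 2 and 86800 CPM in replicate 1. Mir126a, with 95.7% of the list's reads in replicate 2 and 98.2% in replicate 1, had a log2 ratio of only 0.37. The median is that of Mir221 (1.57), and Mir222 had 2.64. The erythroid list (3 of 3 detected, median -2.37) summed to 2542 CPM in replicate 2 and 8201 CPM in replicate 1. The log2 ratios were -3.06 for Mir144, -2.37 for Mir451a and 0.35 for Mir486. The liver list (4 of 4 detected, median -0.092) summed to 91.2 CPM in replicate 2 and 105 CPM in replicate 1. Its members did not go one way: Mir122, the defining miRNA of hepatocytes, had a log2 ratio of -1.24 (12.7 CPM in replicate 2 and 30.0 CPM in replicate 1), Mir194-2 had 0.59 and passed in the other direction, and Mir192 (-0.15) and Mir194-1 (-0.031) did not pass. The leukocyte list (4 of 4 detected, median 0.16) summed to 7238 CPM in replicate 2 and 6557 CPM in replicate 1. Its members did not go one way either. Mir142 (log2 ratio -0.27) passed as higher in replicate 1, while Mir150 (0.13), Mir155 (0.20) and Mir223 (0.22) passed as higher in replicate 2. The epithelial list (6 of 7 detected, median 0.34) summed to 3874 CPM in replicate 2 and 298 CPM in replicate 1. Most of the sum in replicate 2 was Mir205 (1963 CPM in replicate 2 and 2.3 CPM in replicate 1, with too few reads there to count as detected) and Mir200c (1652 CPM in replicate 2 and 82.6 CPM in replicate 1), while Mir200b (log2 ratio -0.61) and Mir429 (-0.68) passed as higher in replicate 1. The part of these lists in the differences of Mir148a and Mir148b was not tested. In whole tissue, fewer cells of a type and less RNA per cell cannot be told apart.

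In each library the leading gene took a smaller share of this family than of the miR-130/miR-301 family. The same held by counted reads for each of the 4 comparison families, which were chosen with earlier results known. For the miR-103/miR-107, miR-26 and miR-101 families the comparison is limited, as given below. The 4 families have members on separate chromosomes, although Mir130b and Mir301b, of the miR-130/miR-301 family, lie 0.258 kb apart on chromosome 16. Mir152 took 62.1% of the family's reads in replicate 2 and 43.7% in replicate 1, while Mir130a took 95.2% (95% Wilson interval 94.7 to 95.6) of the miR-130/miR-301 family in replicate 2 and 93.0% (92.5 to 93.5) in replicate 1. Mir107 took 98.1% of the miR-103/miR-107 family in replicate 2 and 98.6% in replicate 1. Mir26b took 98.8% of the miR-26 family in replicate 2 and 99.8% in replicate 1. The other genes of the last 2 families, Mir103-1 and Mir103-2 as well as Mir26a-1 and Mir26a-2, are pairs of copies that make the same main mature strand. Reads that map to several places are counted for no gene, so these shares may overstate the leading gene. Mir101b took 80.4% (78.7 to 82.0) in replicate 2 and 51.7% (49.2 to 54.2) in replicate 1 of the reads of Mir101a and Mir101b, which are only a pair. The intervals of Mir152 overlapped none of those given in the same library. The leading gene of a pair cannot have fewer reads than its partner, however. The share of Mir101b in replicate 1 could therefore not have been as low as the 43.7% of Mir152. Set over the lowest detected member, the leading gene had a ratio of 1.07 in the miR-101 family in replicate 1. In the miR-148/miR-152 family that ratio was 2.65 in replicate 1. In replicate 2 the ratios were 4.10 and 3.98, so by this measure the order of these 2 families differed between the libraries. In the miR-101 family the paralogs went opposite ways, with Mir101a higher in replicate 1 (log2 ratio -1.56) and Mir101b higher in replicate 2 (0.38), whereas no member of the miR-148/miR-152 family was called as higher in replicate 2.

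The seed of miR-130a-3p is that of the miR-148/miR-152 family moved by 1 base and extended by an A, and this most abundant member of the miR-130/miR-301 family here is shown for comparison.
miR-130a-3p: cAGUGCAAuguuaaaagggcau
The miR-148/miR-152 family had 0.226 times as many reads as the miR-130/miR-301 family in replicate 2 (2147 against 9500, exact 95% interval 0.216 to 0.237) and 0.190 times as many in replicate 1 (1749 against 9197, 0.181 to 0.200). Against the miR-101 family it had 0.981 times as many reads in replicate 2 (0.924 to 1.04) and 1.16 times as many in replicate 1 (1.08 to 1.24), and the interval includes equal levels in replicate 2 only. Against the miR-103/miR-107 family the order turned round, with 0.537 times as many reads in replicate 2 (0.509 to 0.566) and 2.98 times as many in replicate 1 (2.71 to 3.28). Against the miR-26 family it had 0.0189 times as many reads in replicate 2 (0.0181 to 0.0198) and 0.0183 times as many in replicate 1 (0.0175 to 0.0192). The totals of these last 2 families may be understated, since reads of their copies that map to several places are counted for no gene. Mir103-1 and Mir103-2 had 11 and 65 reads in replicate 2 and 0 and 8 in replicate 1. The order against the miR-103/miR-107 family thus holds for counted reads only.

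By profile, the nearest of the other 320 detected genes, measured as the Euclidean distance in log2 CPM over the 2 libraries, differed for each member. Nearest to Mir152 were Mirlet7f-1 (distance 0.0579), Mir411 (0.110) and Mir339 (0.160). Mir148b had Mir215 (0.170), Mir382 (0.220) and Mir18 (0.284). Mir148a had Mir101a at 0.171, with 81.2 CPM in replicate 2 and 240 CPM in replicate 1, and then a gap to Mir541 (0.552) and Mir379 (0.617). None of these 9 genes was another member of the family. The measure rests on 2 libraries only and describes likeness of counted level and of the replicate difference. The level of Mirlet7f-1, a numbered copy, may be understated here too.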

How the data were processed

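The authors deposited raw counts of reads per miRNA gene, 1 table for each library, with 3 columns (either strand and each strand) and 4 summary lines. Per the labels the build was mm10, and per the text deposited beside the tables the annotation was GENCODE M21. Which aligner and counter were used, and how adapters were trimmed, is not given in the sources used here. Of the columns for single strands, the one that held most of the miRNA reads, the same in each library, was taken as sense. Gene names, hosts and hairpins came from GENCODE M21, in which all 2202 IDs were matched, and mature strands from RefSeq (GRCm38.p6). Summary lines stayed out of totals and tests. In replicate 2 they held 34.3% unmapped reads and 32.5% reads mapped to several places, and in replicate 1 19.4% and 40.7%. Reads of CAST/EiJ alleles could be lost, which the counts cannot show.

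With 1 group no model of group means was possible, so tests across all genes were exact binomial tests between the libraries (scipy 1.17.1), after functions were tested on simulated data. The simulated counts held counting error only, so that check did not cover a further spread between libraries such as the one seen here. Intervals are 95%, and the floor is 3 reads. Alternatives used TMM and the exact test of edgeR 4.0.16 and size factors of DESeq2 1.42.0. The members, comparison families and marker lists were chosen with earlier results of these data known. The named genes were the members, the 2 genes above and below each in rank, the 3 nearest profiles, hosts, nearest miRNA genes and the members of the comparison families.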

Additional observations from a re-analysis of the deposited data

How the results depend on the processing

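Of 65 values recomputed under other settings, 51 were labelled the same. Tests had to keep their direction and side of the threshold. Levels, ranks, shares and paralog ratios had to move by no more than the spread between the libraries. Numbers of genes called were compared by fold change. With 2 libraries, leaving 1 out always moves a mean by less than that spread, so those values could not count as moved. Paralog ratios with reads on either strand could not differ either, because the members' reads are the same. Scaled to all reads of a library, mean levels were 74.4 CPM for Mir152, 49.0 for Mir148a and 23.8 for Mir148b and the family share was 0.0147%, because the denominator also holds unmapped reads and reads mapped to several places. With reads on either strand they were 340 CPM for Mir152, 216 for Mir148a and 107 for Mir148b, with a family share of 0.0662%. All rose because that column counts fewer reads in all while the members' reads are the same. The level of Mir148a was still labelled the same, since its spread between the libraries was 98.2 CPM. The log2 ratio of Mir152, 0.00 in the report, was -0.022 with TMM, -0.015 with DESeq2 size factors, -0.0071 in the exact test of edgeR and -0.24 with all reads (adjusted p = 0.000552 there, exact binomial test, and from 0.844 to 1 under the other settings), so its direction is not determined. In the exact test of edgeR 12 genes were called in place of 224, and Mir148a (log2 ratio -1.35) and Mir148b (-0.59) were not among them, since that test allows for a spread between libraries. The spread was estimated from these same 2 libraries, so the difference under test is part of it. Leaving out replicates, the levels ranged from 251.6 to 252.2 CPM for Mir152, from 90.6 to 229 CPM for Mir148a and from 63.4 to 94.8 CPM for Mir148b, so the level of Mir148a rests on which library is used (90.6 CPM without replicate 1). Without either library no difference between libraries could be computed. Each member had at least 288 reads in each library, and with 2 libraries of 1 group the spread between hearts cannot be estimated.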
